A study of Mus musculus with 10 samples.

Results

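The Kruppel-like factors (KLFs) are transcription factors with a run of C-terminal zinc fingers that bind GC-rich and CACCC-type DNA. The 10 members followed here, Klf2, Klf3, Klf4, Klf5, Klf6, Klf7, Klf9, Klf10, Klf12 and Klf13, were chosen by gene symbol from the 45706 genes of the deposited tables. They account for 25 of the 109617 transcripts, and all 10 passed the filter on low counts, as did 20165 genes in all. RNA was sequenced from mouse cells in 5 groups, with 2 libraries in each. MEF, D3, D6 and D9 follow a course of reprogramming toward pluripotency, and ESC is a separate line of pluripotent cells. The first stage, MEF, was embryonic fibroblasts of genotype OKSM Col1a1/M2rtTA ROSA26 and strain C57BL/6 x 129, in MEF medium without doxycycline and unsorted. In these cells the doxycycline-responsive transactivator M2rtTA, at the Rosa26 locus, controls a cassette at Col1a1 with Pou5f1 (Oct4), Sox2, Klf4 and Myc, so Klf4 is both a family member and a cassette factor. D3, D6 and D9 were cells of the same genotype and strain after 3, 6 and 9 days in ESC medium with doxycycline at 1 µg/ml and ascorbic acid at 50 µg/ml. D3 was the unsorted culture, whereas D6 and D9 were sorted for SSEA1, a surface carbohydrate of early pluripotent cells. ESC was the embryonic stem cell line V6.5, of strain C57BL/6 x 129, grown unsorted on irradiated feeder cells in ESC medium with serum and LIF, and no cassette is stated for it. Doxycycline, ascorbic acid and medium change together between MEF and D3, and sorting changes between D3 and D6, so their effects cannot be told apart within those comparisons. Between D9 and ESC the cell line and sorting change, doxycycline and ascorbic acid are given for D9 only, and feeder cells are named for ESC. These effects cannot be told apart either. The comparison of ESC with D9 is called a step here, although the ESC line did not arise from the D9 cells.

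Members of the family divide by what they recruit. Klf2, Klf4, Klf5, Klf6 and Klf7 act mainly as activators, Klf3, Klf12 and the related Klf8 recruit the corepressor CtBP, and Klf9, Klf10, Klf13 and the related Klf11, Klf14 and Klf16 recruit the Sin3a corepressor. In mouse embryonic stem cells Klf2, Klf4 and Klf5 are known as parts of the self-renewal network, with overlapping functions, and Klf4 is among the factors that convert fibroblasts to pluripotent cells.

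Upstream sequences were found for 8 of the 10 members in the RefSeq table (GRCm38.p6), and Klf5 and Klf10 had no entry. Those of Klf2 and Klf6 are shown because the transcripts of these genes fell together at the first and second steps, and that of Klf4 because its transcript total did not fall there. The Klf4 total holds cassette and endogenous reads, which were not separated, so it does not show how the endogenous gene behind this window changed. Each sequence is written 5′ to 3′ on the gene's own strand and ends before the first annotated exon. Capitals mark the GC box GGGCGG or its complement CCGCCC, the E-box CACGTG and, in Klf2, the MEF2 site (CTA and TAG with any 4 bases between them). The Klf2 sequence lies at chr8:72318812-72319032 (plus strand), the Klf6 sequence at chr13:5861239-5861481 (plus strand) and the Klf4 sequence at chr4:55532476-55532725 (minus strand).
Klf2: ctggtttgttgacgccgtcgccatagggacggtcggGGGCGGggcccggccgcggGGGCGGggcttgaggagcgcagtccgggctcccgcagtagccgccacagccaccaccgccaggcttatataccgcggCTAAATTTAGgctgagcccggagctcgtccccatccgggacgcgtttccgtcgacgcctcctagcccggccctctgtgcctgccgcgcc
Klf6: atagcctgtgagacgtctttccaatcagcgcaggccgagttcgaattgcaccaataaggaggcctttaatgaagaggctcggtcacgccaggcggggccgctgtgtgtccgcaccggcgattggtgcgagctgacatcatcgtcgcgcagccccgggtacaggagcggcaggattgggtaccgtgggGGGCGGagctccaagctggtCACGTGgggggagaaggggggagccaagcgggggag
Klf4: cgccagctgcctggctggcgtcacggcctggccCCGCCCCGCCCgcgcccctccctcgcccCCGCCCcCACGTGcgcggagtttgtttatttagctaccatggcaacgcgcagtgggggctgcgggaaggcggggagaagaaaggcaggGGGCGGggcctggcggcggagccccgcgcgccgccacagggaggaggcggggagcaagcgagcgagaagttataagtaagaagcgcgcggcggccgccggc
In the Klf2 window the MEF2 site is a perfect palindrome at -118 to -109 from the RefSeq start, and 2 GC boxes lie upstream of it. The Klf6 window holds 1 GC box at -63 to -58 and 1 E-box at -43 to -38. The Klf4 window holds 4 GC boxes, of which 2 overlap by their last and first base, and 1 E-box at -182 to -177. Motifs were searched on both strands of the 250 bases before each of 27025 RefSeq starts, where the GC box occurred in 32.9%, the E-box in 6.05% and the MEF2 site in 3.23%. The CACCC box occurred in 51.3% of all these windows. It was in the windows of Klf2, Klf3, Klf7, Klf9, Klf12 and Klf13 and in neither that of Klf4 nor that of Klf6; the Klf2 match lies downstream of the bases printed. TATAAA was in 13.0% of all windows and, among the members, in that of Klf12 alone, and the CArG box was in 1.4% of all windows and in none of the 8. These matches describe the letters of the windows, and binding was not measured in these libraries.

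Libraries held 29585876 to 38275024 estimated reads. Members were read by 85 (the lowest Klf12 library) to 21998 (the highest Klf6 library) reads. CPM, the reads of a gene scaled to library size with TMM factors, is used within a gene, and TPM, which is divided by transcript length, is used between genes. A gene is said to have risen or fallen where edgeR's quasi-likelihood test gave a Benjamini-Hochberg adjusted p under 0.05 over all 20165 genes and the log2 fold change was at least 1 in size. The cassette factors Pou5f1 (2.59 to 3.36 CPM in MEF, 223.7 to 242.9 at D3) and Sox2 (3.25 to 3.48 CPM in MEF, 253.1 to 262.0 at D3) followed the labels. The 12 fibroblast markers summed to 48110 to 49540 CPM in MEF, 3702 to 3712 at D3, 154.6 to 159.5 at D6, 67.86 to 74.35 at D9 and 4257 to 4402 in ESC. The 10 pluripotent markers summed to 1.85 to 2.10, 97.87 to 101.4, 171.2 to 171.5, 367.7 to 377.4 and 4175 to 4259 CPM in the same order. Most of the D3 sum was Fgf4 (94.3 CPM), and at that step 2 of the 10 rose and 1 fell, beside 29.1% of all tested genes called. Mitochondrial transcripts took 2.02% to 5.32% of the reads, most at D9. Because these are bulk samples, fewer cells of a type and less RNA per cell cannot be told apart. The labels do not say that the 2 libraries of a group came from separate cultures, although the design text speaks of biological replicates, so p-values measure only the spread between these samples.

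**Figure D1:**
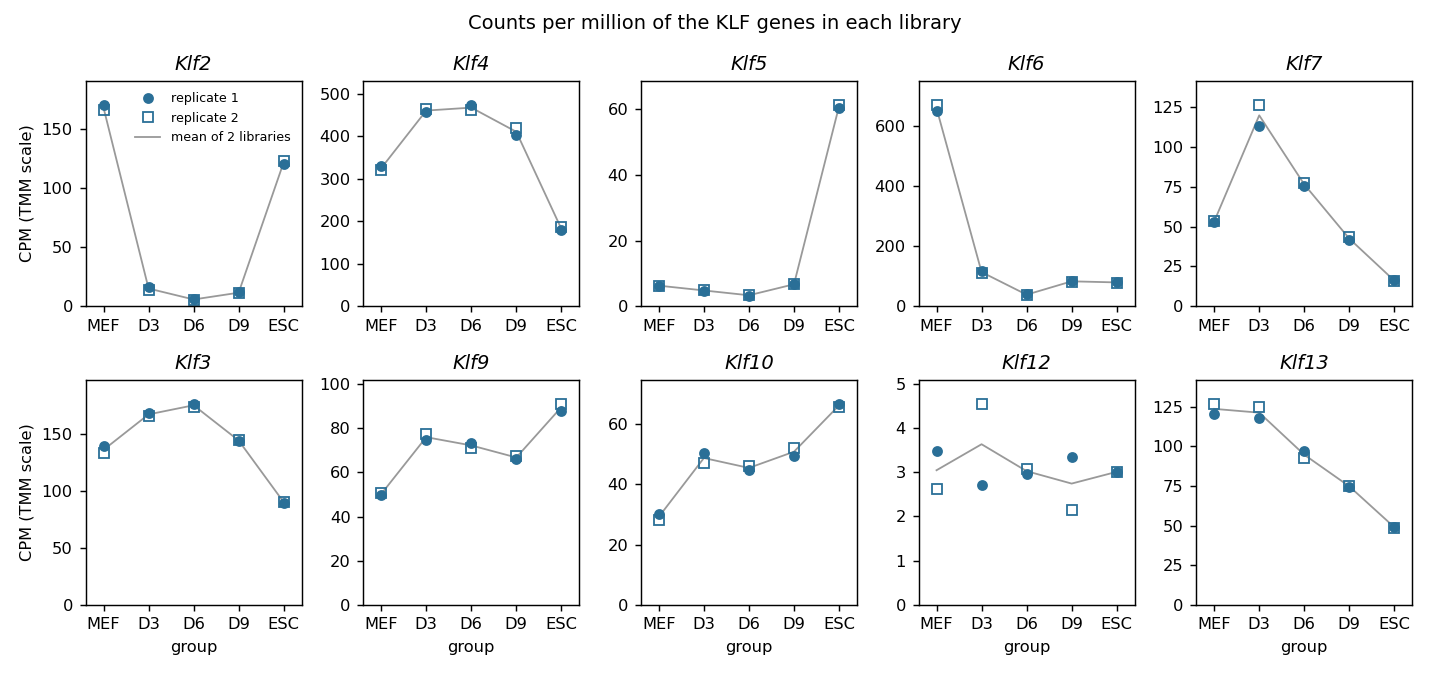
Level of each of the 10 KLF genes in each library, in CPM on the TMM scale with a linear axis from 0, by group. Filled circles are replicate 1, open squares replicate 2 and the line joins the means of 2 libraries. Klf2 and Klf6 drop from MEF to D3 and D6, Klf5 and Klf2 are high in ESC after low values at D9, Klf4 is lowest in ESC, and Klf12 stays under 5 CPM.

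Klf2, a regulator of endothelial quiescence and lymphocyte traffic that also belongs to the stem cell network, had the widest range of the 10 genes. The gene lies on chromosome 8 (GRCm38, 72319033 to 72321656, plus strand). It was at 170.3 and 165.9 CPM in the MEF libraries, 15.83 and 14.04 at D3, 6.03 and 5.29 at D6, 11.83 and 10.96 at D9 and 120.5 and 123.3 in ESC. The MEF and ESC libraries are high and the induced ones low, and no groups overlap. Klf2 fell 11.2-fold from MEF to D3 (log2 fold change -3.49, SE 0.057, edgeR adjusted p = 1.3e-15) and again from D3 to D6 (-1.40, SE 0.086, edgeR adjusted p = 4.6e-09). It then rose from D6 to D9 by 1.00 (SE 0.091, edgeR adjusted p = 8.7e-07) and 10.7-fold from D9 to ESC (3.42, SE 0.060, edgeR adjusted p = 3.1e-15). Klf2 at D9 sits on the fold change minimum: it was 0.91 without D6 replicate 2, 0.95 without D9 replicate 1 and just under 1 without MEF replicate 1 or ESC replicate 1. In the main test Klf2 was the only member of the 10 that passed both thresholds at all 4 steps, and the share of all tested genes that did so was not counted. The order of its groups was D6, D9, D3, ESC and MEF, each neighbour differing at an adjusted p under 0.05 in edgeR, although the D9 and D3 means (11.4 and 14.94 CPM) and the ESC and MEF means (121.9 and 168.1 CPM) differed by less than 2-fold. At its lowest, D6, the gene was 29.7-fold below MEF, and the lowest library held 175 reads.

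Klf6, an activator induced by serum and by injury in many tissues, fell over the same steps and was no higher in ESC than at D9. It lies on chromosome 13 (5861482 to 5870394, plus strand). Its libraries read 650.2 and 670.6 CPM in MEF, 116.7 and 110.6 at D3, 40.16 and 36.39 at D6, 83.64 and 82.01 at D9 and 80.16 and 78.22 in ESC. Only the MEF libraries are above 120 CPM, and the D9 and ESC libraries lie close together without overlapping. The fall was 2.54 on the log2 scale at D3 (SE 0.042, edgeR adjusted p = 1.4e-15) and 1.57 at D6 (SE 0.047, edgeR adjusted p = 2e-12), followed by a rise of 1.11 at D9 (SE 0.048, edgeR adjusted p = 5.8e-10). ESC and D9 did not differ past the threshold (-0.07, SE 0.045, edgeR adjusted p = 0.22). Against MEF, ESC was 8.34-fold lower in Klf6 (edgeR adjusted p = 2.3e-16), while Klf2 stood only 0.46 lower on the log2 scale (SE 0.046, edgeR adjusted p = 3.4e-07), under the fold change minimum.

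Fibroblast markers fell at D3 and D6, as both genes did: 10 of 12 at D3 and 12 of 12 at D6. At D9, where Klf2 and Klf6 rose, 3 of the 12 fell and none rose. Over all tested genes, 29.1% were called at D3, 19.5% at D6 (10.2% fell) and 7.87% at D9. Their part in the falls of Klf2 and Klf6 was not tested. Fibroblast transcripts were also present in the ESC libraries, which the labels say were grown on feeder cells. The summed fibroblast markers in ESC were 8.87% of their MEF level, and single markers ranged from 1.11% to 14.0% (median 8.18%, 12 genes). Klf6 in ESC was at 12.0% of its MEF level and Klf2 at 72.5%, so the Klf6 percentage lies inside the range of the fibroblast markers and that of Klf2 lies above all of them. Klf7 was at 30.1% and Klf13 at 39.6%. None of the 12 fibroblast markers was at 0 in ESC, and all 12 were lower than in MEF and 11 of them higher than at D9. The shares of all tested genes called in these comparisons were 46.1% and 32.9%. The part of feeder RNA in the ESC levels of Klf2 and Klf6 was not tested.

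Klf4 was read at 329.9 and 320.3 CPM in MEF, 457.4 and 464.4 at D3, 473.7 and 462.1 at D6, 402.4 and 419.4 at D9 and 178.8 and 185.5 in ESC. The induced libraries are highest, those of D3 and D6 overlap, and the ESC libraries are lowest. The difference of D3 from MEF was 0.50 (SE 0.034, edgeR adjusted p = 7.1e-09), below the fold change minimum. On length-scaled values it passed, with 1.15 under a length offset and 1.17 and 1.18 in limma on TPM. Such values weigh reads assigned to the short transcript Klf4-003 (effective length 273 bases) more than those of Klf4-001 (2780 bases). From D9 to ESC Klf4 fell 2.26-fold (-1.17, SE 0.035, edgeR adjusted p = 7.1e-13). The gene total was 2.57 times as high at its maximum, D6, as in ESC. Reads from the cassette and from the endogenous gene at chromosome 4 (GRCm38, 55527143 to 55532466, minus strand) were not separated in these tables.

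Transcripts of Klf4 differed in how they followed the stages. Klf4-001, the long coding transcript of 3029 bases, held 306.3 ± 5.37 (SD, n = 2) CPM in MEF, 392.0 ± 2.40 at D3, 379.6 ± 7.71 at D6, 339.9 ± 6.43 at D9 and 170.8 ± 4.24 in ESC. Klf4-003, of 522 bases, held 17.71 ± 1.27 (SD, n = 2), 68.63 ± 2.74, 88.11 ± 0.53, 70.88 ± 5.73 and 10.53 ± 0.417 CPM in the same order. Of the 522 bases, 502 lie inside the coding sequence of Klf4-001 and 20 are its own. The short transcript held 5.6% and 5.3% of the Klf4 reads in the MEF libraries, 14.6% and 15.2% at D3, 18.7% and 19.0% at D6, 16.6% and 17.9% at D9 and 5.7% and 5.8% in ESC. All 6 libraries with doxycycline are above the 4 without it. Reads of 50 nt from the shared bases are split by an estimate, so these shares are assignments and not counts of distinct molecules.

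**Figure D2:**
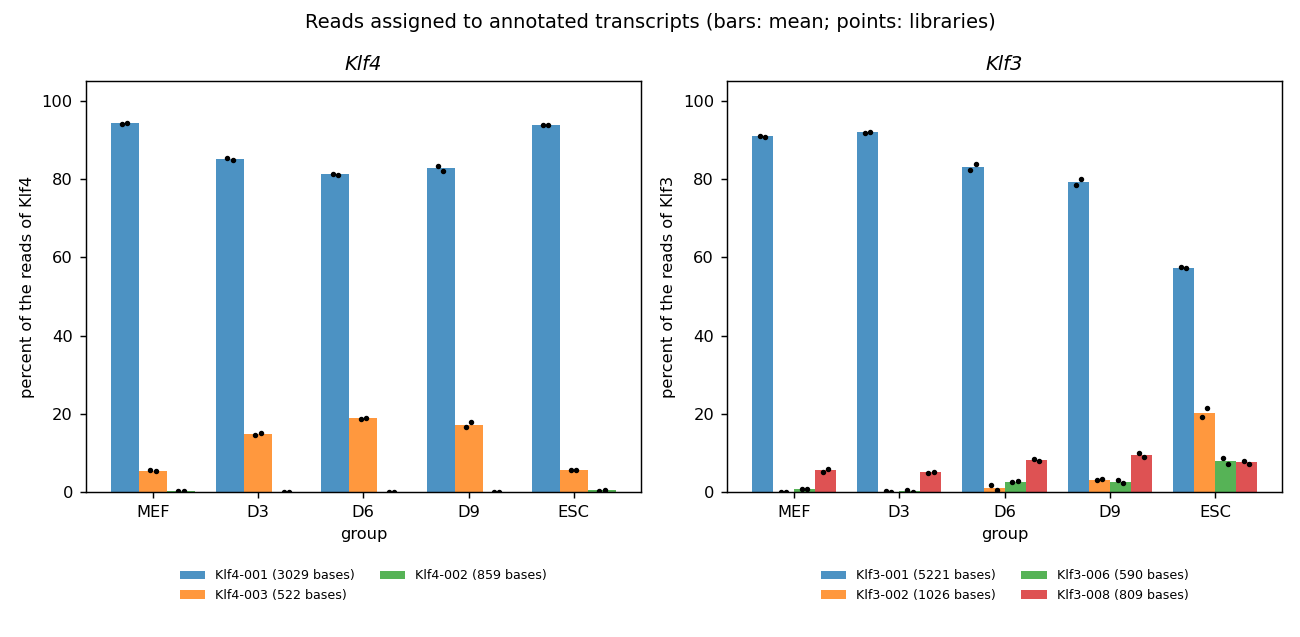
Percent of the reads of Klf4 (left) and Klf3 (right) assigned to each annotated transcript, by group, on a linear axis from 0, for transcripts that the legend names with their length; bars are means of 2 libraries and points single libraries. Klf4-003 lies at 14.6% to 19.0% in the D3, D6 and D9 libraries and at 5.3% to 5.8% in the others, and Klf3-001 has its lowest mean share, 57.3%, in ESC.

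Klf5, an activator of the stem cell network and of proliferating gut epithelium, was low in every library but those of ESC. It was at 6.28 and 6.22 CPM in MEF, 4.60 and 4.97 at D3, 3.12 and 3.51 at D6, 6.72 and 6.62 at D9 and 60.51 and 61.28 in ESC. MEF and D9 lie side by side (edgeR adjusted p = 0.4), D6 is lowest and ESC stands far above. Klf5 rose from D6 to D9 by 1.01 (SE 0.097, edgeR adjusted p = 1.6e-06) and 9.13-fold from D9 to ESC (3.19, SE 0.067, edgeR adjusted p = 1.9e-14). In ESC it was 9.74-fold above MEF (edgeR adjusted p = 1.2e-14). The call at D9 was lost without D6 replicate 1 (0.92) or D9 replicate 1 (0.996). The lowest library held 106 reads of the gene. At chromosome 14 (GRCm38, 99298691 to 99315036, plus strand), Klf5 is represented in the files by 1 transcript of 1721 bases. In GENCODE M21 a later version of that transcript has 3352 exonic bases. Reads from bases that the shorter form lacks could not be assigned to it, which bears on the level of Klf5 beside other genes.

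Klf7, an activator known from neuronal development, had its maximum at D3. It lies on chromosome 1 (GRCm38, 64029447 to 64122282, minus strand). It read 52.86 and 53.44 CPM in MEF, 113.4 and 126.2 at D3, 75.58 and 77.25 at D6, 41.24 and 43.52 at D9 and 16.5 and 15.49 in ESC. No groups overlap, and the D3 libraries are apart from each other by more than those of any other group. Klf7 rose 2.25-fold at D3 (1.17, SE 0.053, edgeR adjusted p = 8.3e-11) and was the single member that rose there. Lower values followed at D6 (-0.65, SE 0.051) and D9 (-0.85, SE 0.055), each under the fold change minimum, and Klf7 fell 2.66-fold from D9 to ESC (edgeR adjusted p = 1.1e-10). ESC was 3.33-fold below MEF (edgeR adjusted p = 4.7e-12). On length-scaled values the fall from D9 to ESC did not pass the minimum (-0.97 with a length offset, -0.54 and -0.78 in limma on TPM), and in limma on log2(TPM + 1) the rise at D3 was 0.93 and ESC against MEF -0.87, also under it.

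Among the members that recruit CtBP, Klf3, a repressor of erythroid and adipose genes, did not pass both thresholds in any of the 10 pairs of groups. It lies on chromosome 5 (GRCm38, 64803388 to 64832901, plus strand). Its libraries read 138.9 and 133.0 CPM in MEF, 168.4 and 165.7 at D3, 176.3 and 173.7 at D6, 143.6 and 144.7 at D9 and 89.53 and 90.53 in ESC. The ESC libraries are lowest, those of D6 highest, and the ratio of the extremes is 1.94. D3 and D6 did not differ at the adjusted p threshold (edgeR adjusted p = 0.097).

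The order of the groups for Klf3 differed between scales. In TPM its libraries read 40.22 and 33.63 in MEF, 39.09 and 32.12 at D3, 66.03 and 52.15 at D6, 59.32 and 49.3 at D9 and 62.56 and 63.07 in ESC, so that ESC is high in TPM and low in CPM. The long transcript Klf3-001, of 5221 bases, held 90.9% of the reads in MEF, 92.0% at D3, 83.0% at D6, 79.2% at D9 and 57.3% in ESC. Klf3-002, an annotated retained intron of 1026 bases, held 0.1% of the reads in MEF and 19.3% and 21.4% in the ESC libraries. In CPM it went from 0.0708 ± 0.0096 (SD, n = 2) in MEF to 0.204 ± 0.271 at D3, 2.00 ± 1.63 at D6, 4.56 ± 0.344 at D9 and 18.3 ± 1.46 in ESC. The D3 libraries (0.396 and 0.0118) and the D6 libraries (3.15 and 0.847) differ widely within their groups, and the ESC libraries stand above all others. Of its 1026 bases, 946 are shared with Klf3-001 and 80 are its own (chromosome 5, GRCm38, 64823030 to 64823109). Klf3-005, an annotated nonsense-mediated decay transcript of 298 bases, has an effective length of 50.56 bases, beside 4972 for Klf3-001. A read assigned to Klf3-005 therefore weighs far more in TPM. It held 3.3% and 3.6% of the Klf3 reads in the ESC libraries, and 117.0 and 69.4 reads in the D6 libraries. Its part in the TPM of Klf3 was not tested.

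Klf12, a repressor of the AP-2 alpha gene, was low in every library. From D3 to D6 its SE was 0.261, beside 0.103 for Klf5, which was also low there. The part of depth and of spread between libraries in that SE was not tested. It ranged from 2.15 to 4.55 CPM over the 10 libraries, with 85 to 154 reads in each. Its groups overlap, and none of the 10 pairs reached an adjusted p under 0.05 in edgeR. Klf8, the CtBP-recruiting relative that is not a member here, was at 2.81 and 3.38 CPM in MEF, 4.25 and 4.55 at D3, 4.94 and 4.14 at D6, 4.79 and 4.52 at D9 and 22.45 and 21.6 in ESC. It rose from D9 to ESC by 2.24 (SE 0.112, edgeR adjusted p = 2.7e-10).

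The members that recruit Sin3a had ratios of highest to lowest group of 1.78 (Klf9), 2.27 (Klf10) and 2.53 (Klf13). Klf9, which is induced by glucocorticoid and thyroid hormone, read 49.83 and 50.58 CPM in MEF, 74.63 and 77.33 at D3, 73.49 and 70.99 at D6, 65.96 and 67.59 at D9 and 88.06 and 91.11 in ESC. MEF is lowest and ESC highest, and D6 and D3 did not differ at the adjusted p threshold (edgeR adjusted p = 0.14). No pair of groups passed both thresholds for Klf9, and its largest difference was ESC above MEF by 0.84 (SE 0.041), which was 1.18 with library size scaling.

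Klf10, first described as a TGF-beta inducible early gene, read 30.25 and 28.2 CPM in MEF, 50.29 and 47.21 at D3, 44.77 and 46.16 at D6, 49.47 and 52.2 at D9 and 66.76 and 65.69 in ESC. MEF is lowest and ESC highest, with D3 and D9 overlapping. The difference of D3 from MEF was 0.74 (SE 0.054, edgeR adjusted p = 1.9e-08), and only ESC against MEF passed both thresholds, a rise of 2.27-fold (1.18, SE 0.053, edgeR adjusted p = 4e-11).

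Klf13, a regulator of T cell and heart genes, took the opposite course. It read 120.5 and 126.9 CPM in MEF, 117.9 and 124.7 at D3, 96.92 and 92.58 at D6, 74.48 and 75.06 at D9 and 49.29 and 48.6 in ESC. MEF and D3 overlap (edgeR adjusted p = 0.55), and each later group lies below the one before. The 3 later steps were lower by 0.36, 0.34 and 0.61 on the log2 scale, each under the fold change minimum, and together ESC fell 2.53-fold below MEF (-1.34, SE 0.044, edgeR adjusted p = 1.2e-12). With library size scaling that difference was just under the minimum, at -0.999.

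**Figure D3:**
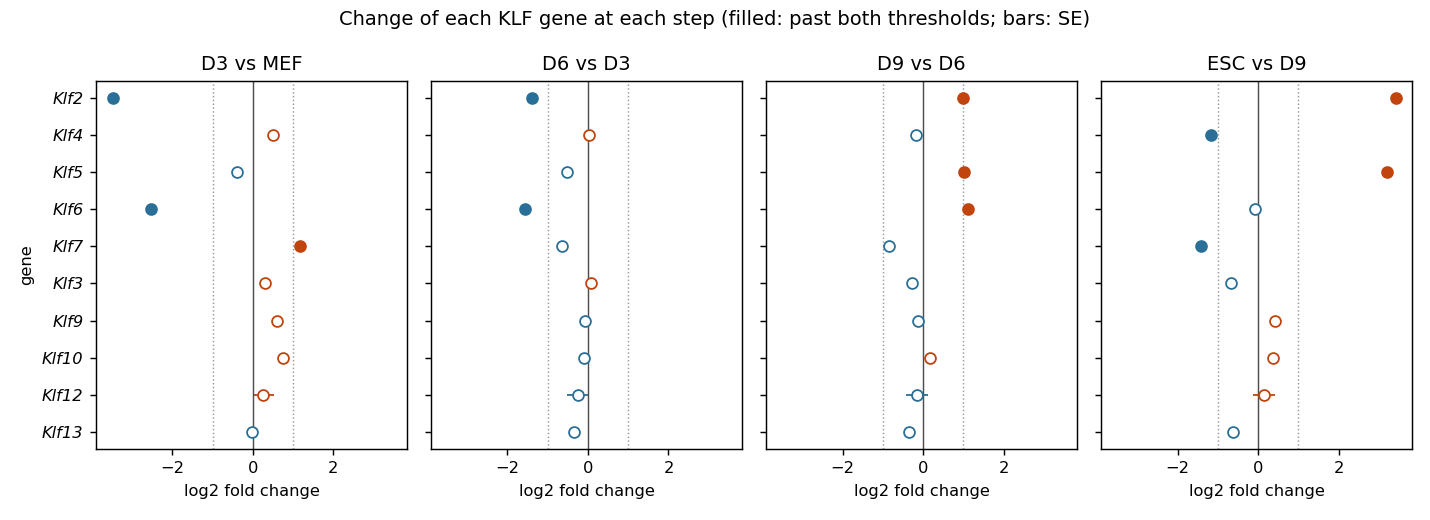
Log2 fold change of each of the 10 KLF genes at the 4 steps, the last of which compares the separate ESC line with D9, from edgeR on 10 libraries. Bars are SE (mostly smaller than the points) and filled points pass both thresholds. Orange is higher and blue lower in the first group of each panel title, and dotted lines mark the fold change minimum. Klf2 is filled at all 4 steps, Klf6 at 3, Klf5 and Klf7 at 2 and Klf4 at 1.

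Counted as a family, 3 of the 10 members passed both thresholds from MEF to D3 (Klf7 up, Klf2 and Klf6 down), where 29.1% of all tested genes did. From D3 to D6 there were 2 (Klf2 and Klf6, both down) beside 19.5% of all genes (10.2% fell), from D6 to D9 there were 3 (Klf2, Klf5 and Klf6, all up) beside 7.87% (5.18% rose), and from D9 to ESC there were 4 (Klf2 and Klf5 up, Klf4 and Klf7 down) beside 32.9%. ESC against MEF gave 5 (Klf5 and Klf10 up, Klf6, Klf7 and Klf13 down) beside 46.1%, and D9 against MEF gave 2 (Klf2 and Klf6 down) beside 43.9% (19.8% fell). The remaining pairs gave 2 for D6 against MEF (40.5% of all genes), 1 for D9 against D3 (26.9%), 5 for ESC against D3 (41%) and 5 for ESC against D6 (35.2%). The shares at D3, at D6 and from D9 to ESC are near the background, and those for D9 against MEF, D6 against MEF and D9 against D3 are below it. From D6 to D9, 3 of 10 stands above its background, and all 3 genes lie at a log2 fold change between 1.00 and 1.11, close to the minimum, so that leaving out D9 replicate 1 leaves 1 of them past it. With limma on log2(TPM + 1), which understates changes of low genes, the values were 0.64 (Klf2), 0.54 (Klf5) and 0.89 (Klf6) and 0 members passed, and with log2(TPM + 0.1) 1 passed. The median log2 fold change of the members was 0.28 at D3 (0.08 over all genes), -0.31 at D6 (0.03), -0.13 at D9 (0.00), 0.04 in ESC against D9 (0.01) and -0.53 in ESC against MEF (0.10). Consecutive steps share libraries, as do all comparisons with MEF, so these counts are not independent of each other.

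The composition of the KLF transcript pool, taken per length in TPM, was led by Klf4 at D3, D6 and D9. In MEF, Klf4 held a mean of 29.6% of the summed TPM of the 10 members, Klf6 27.8%, Klf2 17.6% and Klf3 13.4%. At D3, Klf4 held 66.1% and Klf3 12.8%, at D6 68.2% and 18.8%, and at D9 63.4% and 20.7%. In ESC, Klf3 held 29.7%, Klf4 23.2%, Klf2 17.4% and Klf5 9.4%. The sum itself was 266.2 to 282.1 TPM in MEF, 271.2 to 284.2 at D3, 302.5 to 322.3 at D6, 261.3 to 264.2 at D9 and 210.8 to 212.6 in ESC. MEF and D3 overlap in the TPM sum and ESC is lowest. In CPM the sum was 1552 to 1558 in MEF, 1122 to 1140 at D3, 971.1 to 993.0 at D6, 882.7 to 904.2 at D9 and 753.1 to 762.7 in ESC, where no groups overlap and each is below the one before. A read on a short transcript adds more TPM than one on a long transcript, which bears on Klf4 and Klf3. The Klf3 share of TPM includes Klf3-005, with an effective length of 50.56 bases and 3.3% and 3.6% of the Klf3 reads in the ESC libraries. In CPM, which is not divided by length, Klf4 held 20.9%, 40.8%, 47.7%, 46.0% and 24.0% of the members' sum and Klf3 8.7%, 14.8%, 17.8%, 16.2% and 11.9% from MEF to ESC. Klf6 held 42.4% of the CPM sum in MEF. On either scale Klf4 had the highest share at D3, D6 and D9, but the leading gene in MEF was Klf4 in TPM and Klf6 in CPM, and that in ESC Klf3 in TPM and Klf4 in CPM.

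**Figure D4:**
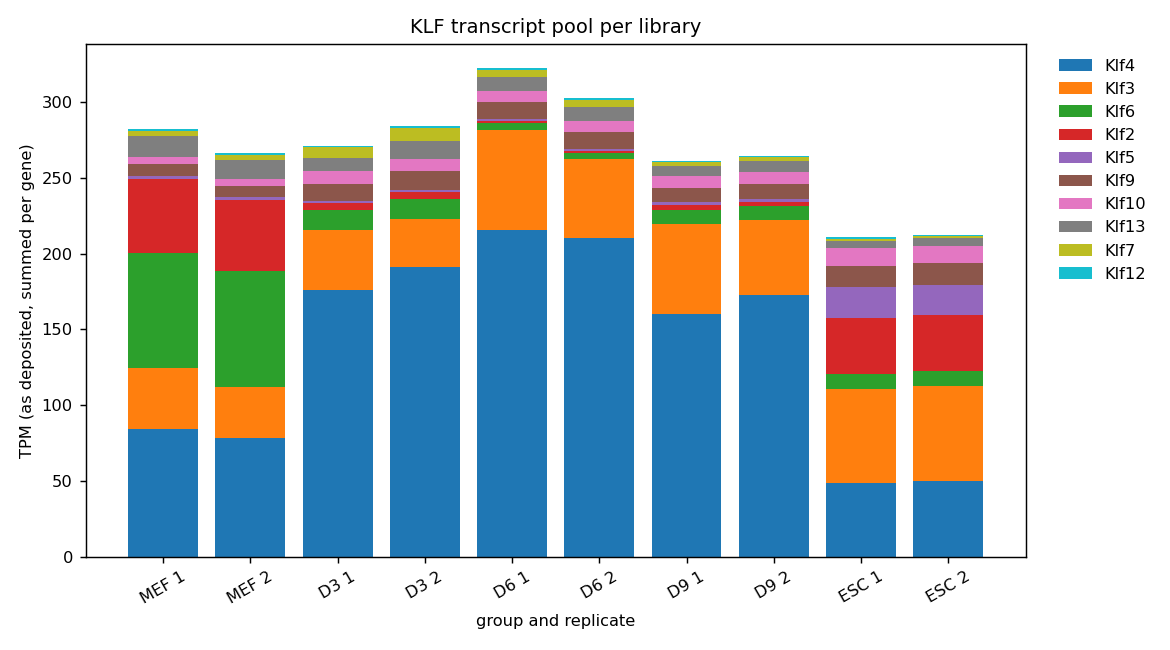
Summed TPM of the 10 KLF genes in each library, on a linear axis from 0, with 1 colour per gene. Klf4 makes up 63.4% to 68.2% of the bars on average at D3, D6 and D9, whereas Klf6, Klf2 and Klf3 share the MEF bars with it and Klf3, Klf2 and Klf5 the ESC bars.

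The other 16 genes of the KLF and SP families, which share the zinc finger domain, were also followed, and 15 of them passed the filter. From MEF to D3, 2 rose (Klf15 and Sp9) and 2 fell (Klf1 and Sp7), at D6 and at D9 Sp6 alone rose, from D9 to ESC 6 rose and 2 fell, and ESC against MEF gave 7 up and 1 down. Over all tested genes, 29.1% were called at D3, 19.5% at D6, 7.87% at D9, 32.9% from D9 to ESC and 46.1% for ESC against MEF. Sp6, a factor of tooth and skin epithelium, read 0.443 and 0.945 CPM in MEF, 1.13 and 1.36 at D3, 4.82 and 5.32 at D6, 17.65 and 18.36 at D9 and 6.19 and 6.12 in ESC, so that it peaked at D9 with no overlap. Sp7, the osteoblast factor, read 4.73 and 4.63 CPM in MEF and 0.442 and 0.481 in ESC, and it is listed at 0 reads in all 6 induced libraries. Sp1, the broadly expressed founder of the SP genes, read 100.6 and 102.7 CPM in MEF, 151.6 on average at D3 and 193.0 and 194.3 in ESC, and no step passed the fold change minimum. The median of these 15 genes was 0.45 at D3 and 0.93 for ESC against MEF, beside 0.08 and 0.10 over all genes tested.

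Proteins that KLFs recruit, or that modify KLFs, were counted next. For these and the following lists, the share of all tested genes called is 29.1% at D3, 19.5% at D6, 7.87% at D9, 32.9% from D9 to ESC and 46.1% for ESC against MEF. Of 13 corepressors and coactivators, 2 rose at D3, none passed at D6 or D9, 1 fell from D9 to ESC, and 6 rose and 1 fell for ESC against MEF. Parp1, a poly(ADP-ribose) polymerase, rose from 90.39 CPM in MEF to 324.4 at D3 (1.84, SE 0.036, edgeR adjusted p = 9.2e-15), and Sap30, a subunit of the Sin3 complex, from 13.77 to 31.97 (1.22, SE 0.064, edgeR adjusted p = 5.2e-10). Ctbp1, the corepressor of Klf3 and Klf12, fell from 144.7 CPM at D9 to 70.83 in ESC (-1.03, SE 0.035, edgeR adjusted p = 3.5e-12) with TMM scaling, but not past the fold change minimum with library size or DESeq2 size factors. The median of the 13 genes was 0.28, 0.51, 0.00 and 0.18 at the 4 steps. In a list of 8 ubiquitin ligases and related enzymes, Fbxo32 rose and Egln1 fell at D3, Fbxo32 fell at D6, and none passed at D9 or from D9 to ESC. Fbxo32 went from 93.94 CPM in MEF to 217.6 at D3 and 42.94 at D6 (-2.34, SE 0.047, edgeR adjusted p = 3.5e-14). Their median was 0.12 at D3, which became 0.00 with DESeq2 size factors, then 0.01, -0.24 and 0.13.

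In the stem cell circuit around the KLF genes, 3 of 12 genes rose and 2 fell at D3, 8 rose and 1 fell at D6, 6 rose and none fell at D9, and 9 rose and 1 fell from D9 to ESC. The medians of the 12 genes were -0.22, 4.43, 1.01 and 1.99. Of the 3 that rose at D3, Pou5f1 and Sox2 are cassette factors, whose cassette and endogenous reads were not separated, and the third was Tfcp2l1. Tbx3 fell at D6 and Nr5a2 from D9 to ESC; these genes were named after their values were seen. Esrrb, an orphan nuclear receptor of naive pluripotency, was at 0.226 CPM in MEF, 0.155 at D3, 16.82 at D6, 38.54 at D9 and 420.5 in ESC, and Nanog, the homeobox factor, rose from 25.79 at D6 to 70.2 at D9 (1.45, SE 0.077, edgeR adjusted p = 4.1e-09). Tbx3, a T-box factor, rose from 1.64 CPM at D9 to 88.13 in ESC (5.71, SE 0.115, edgeR adjusted p = 1.2e-14). The 8 genes rose at D6, where Klf2 and Klf6 fell and Klf5 was at its lowest.

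Genes reported as KLF targets in epithelium and stem cells were counted beside the epithelial markers. Of the 13 that could be tested, 5 rose and 4 fell at D3, 6 rose and 1 fell at D6, 7 rose and none fell at D9, and 4 rose and 4 fell from D9 to ESC (medians 0.00, 0.29, 2.39 and -0.22). Cdh1, which encodes E-cadherin, rose from 0.37 CPM in MEF to 9.49 at D3 (4.62, SE 0.198, edgeR adjusted p = 4.8e-11) and reached 413.8 at D9. The keratin Krt8 rose from 18.2 CPM at D6 to 148.9 at D9 and fell to 11.15 in ESC. The 10 epithelial markers summed to 15.26 to 18.05 CPM in MEF, 16.44 to 18.28 at D3, 290.2 to 295.1 at D6, 1542 to 1602 at D9 and 629.0 to 630.2 in ESC, with 9 of 10 up at D6 and 10 of 10 at D9. Their median at D3 was 0.18 with 3 up and 3 down, and -0.03 with a length offset. The 8 stratified epithelium markers, of which 6 were tested, summed to 3.72 to 12.41 CPM from MEF to D6, 73.87 to 74.05 at D9 and 42.72 to 47.93 in ESC.

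Genes reported as Klf2 targets in endothelium and lymphocytes form a mixed list: Klf2 is known to activate Nos3, Thbd and S1pr1 and to repress Edn1 and Vcam1. Of 7, 1 rose and 3 fell at D3, 2 rose and 4 fell at D6, 1 fell at D9, and 4 rose and 1 fell from D9 to ESC, with medians of -1.07, -2.02, -0.35 and 1.16. Edn1, which encodes endothelin-1, rose at D3 from 8.98 to 66.64 CPM (2.90, SE 0.088, edgeR adjusted p = 1e-12). The 3 that fell there, named after their values were seen, were Itgb7 (-3.16), Nos3 (-2.96) and S1pr1 (-1.37), all below 20 CPM. Vcam1, an adhesion molecule, fell from 197.7 CPM at D3 to 11.77 at D6 (-4.07, SE 0.054, edgeR adjusted p = 5.8e-16). Thbd, which encodes thrombomodulin, fell from 106.9 to 23.11 CPM at D6 and rose from 13.54 at D9 to 30.46 in ESC. The 8 endothelial markers summed to 10.76 to 12.08 CPM in MEF, 130.3 to 133.9 at D3, 129.5 to 134.2 at D6, 78.82 to 79.73 at D9 and 109.2 to 114.1 in ESC. Most of the induced sum was Tek (121.0 CPM at D3) and most of the ESC sum Pecam1 (99.0 CPM), and Sox17 was at 0 in MEF and D3 and Emcn at 0 at D6. Klf2 was high where this sum was lowest, in MEF, and also where it was near its middle, in ESC.

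Klf6, Klf2 and Klf10 are known to respond to serum and to TGF-beta, and genes of the same kind were counted. Of 19 immediate early genes, the class that cells induce within minutes of a stimulus, 11 fell and none rose at D3 (median -1.04; 29.1% of all tested genes were called and their median was 0.08), with 6 falling under library size scaling and 13 under DESeq2 size factors. At D6, 13 fell and none rose (median -1.40, beside 10.2% of all genes that fell and a median of 0.03), at D9 only Atf3 rose (median 0.43), and from D9 to ESC 1 rose and 3 fell (median -0.09). For ESC against MEF, 16 fell and none rose (46.1% of all genes were called), with a median of -2.79 beside 0.10 over all genes. Egr1, a zinc finger factor, fell from 1861 CPM in MEF to 718.8 at D3 (-1.37, SE 0.043, edgeR adjusted p = 1.3e-12), and Zfp36, an RNA-binding regulator of mRNA decay, from 395.2 at D3 to 53.04 at D6 (-2.90, SE 0.051, edgeR adjusted p = 9.7e-15). The 19 genes summed to 9725 to 9865 CPM in MEF, 4920 to 5438 at D3, 1523 to 1553 at D6, 2214 to 2216 at D9 and 1347 to 1373 in ESC. Klf6 and this sum were both highest in MEF and lower in the induced libraries than there.

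Of 10 TGF-beta response genes, 2 rose and 3 fell at D3 (0 and 4 with DESeq2 size factors), 8 fell and none rose at D6, 1 rose and 1 fell at D9, and 4 rose and 1 fell from D9 to ESC, with medians of -0.50, -1.85, 0.02 and 0.46. At D3, Id1 (1.04) and Ctgf (1.01), named after their values were seen, rose, and Tgfbi, a matrix protein, fell from 351.1 to 62.36 CPM (-2.49, SE 0.046, edgeR adjusted p = 5e-15). Of 13 glucocorticoid and circadian output genes, a class to which Klf9 also belongs, 6 rose and 1 fell at D3 (4 and 2 with DESeq2 size factors, 3 and 1 with a length offset), 1 rose and 1 fell at D6, 1 fell at D9, and 1 rose and 4 fell from D9 to ESC. Their medians were 0.90, -0.53, -0.35 and -0.49, the last of which was 0.09 with a length offset. Dbp, a circadian output factor, rose from 11.4 CPM in MEF to 55.06 at D3 (2.28, SE 0.071, edgeR adjusted p = 1.4e-12). Fkbp5, a glucocorticoid-induced chaperone, rose from 41.77 CPM at D9 to 147.9 in ESC (1.82, SE 0.051, edgeR adjusted p = 4e-13).

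Further marker lists were summed. The 7 macrophage and blood markers summed to 11.56 to 12.1 CPM in MEF, 22.97 to 24.93 at D3, 4.70 to 6.11 at D6, 7.75 to 8.39 at D9 and 81.55 to 84.89 in ESC, where all 7 were higher than at D9. The 8 trophoblast and endoderm markers summed to 140.7 to 141.4, 181.7 to 182.2, 41.89 to 46.16, 22.05 to 23.89 and 28.31 to 30.2 CPM in the same order, most of it Dab2 (175.4 CPM at D3), with Cdx2 at 0 in MEF, D3, D6 and D9. Klf2 and Klf5 are both known in other lineages, and the part of such cells in their ESC levels was not tested.

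The genes nearest to 4 members in pattern were sought among 9561 protein-coding genes, by the root mean square (rms) difference of log2 CPM over the 10 libraries after each gene was centred on its own mean. For Klf2 they were Adamts14, a procollagen protease (rms 0.27, r = 0.995), the serum- and glucocorticoid-regulated kinase Sgk1 (0.35, r = 0.991) and Dysf, a membrane repair protein (0.36, r = 0.986). Sgk1 had means of 260.4, 28.43, 15.56, 32.87 and 249.6 CPM from MEF to ESC, high at both ends as Klf2 is. For Klf6 they were Nfkbiz, a nuclear inhibitor of NF-kappa-B (0.26, r = 0.982), the signalling ligand Wnt5a (0.29, r = 0.995) and the membrane protein Lrig3 (0.36, r = 0.979).

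For Klf5 they were Nr6a1, an orphan nuclear receptor (0.36, r = 0.972), the elongation factor Tcea3 (0.40, r = 0.964) and Phf11d (0.47, r = 0.957). For Klf4 they were the kinase Zak, Srek1ip1 and Impad1, with rms of 0.06, 0.06 and 0.07 and r of 0.994, 0.996 and 0.994. The Klf4 distances are the smallest of the 4 members, and Klf4 also varied least among them. Among the members themselves the nearest pairs were Klf9 with Klf10 (rms 0.16, r = 0.943) and Klf3 with Klf4 (0.18, r = 0.986), whereas Klf2 and Klf6 stood 1.34 apart (r = 0.724). These values describe 10 libraries in 5 groups that share depth and composition effects, and with Pearson r in place of rms 1, 0, 0 and 1 of the 3 genes were shared for Klf2, Klf4, Klf5 and Klf6.

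**Figure D5:**
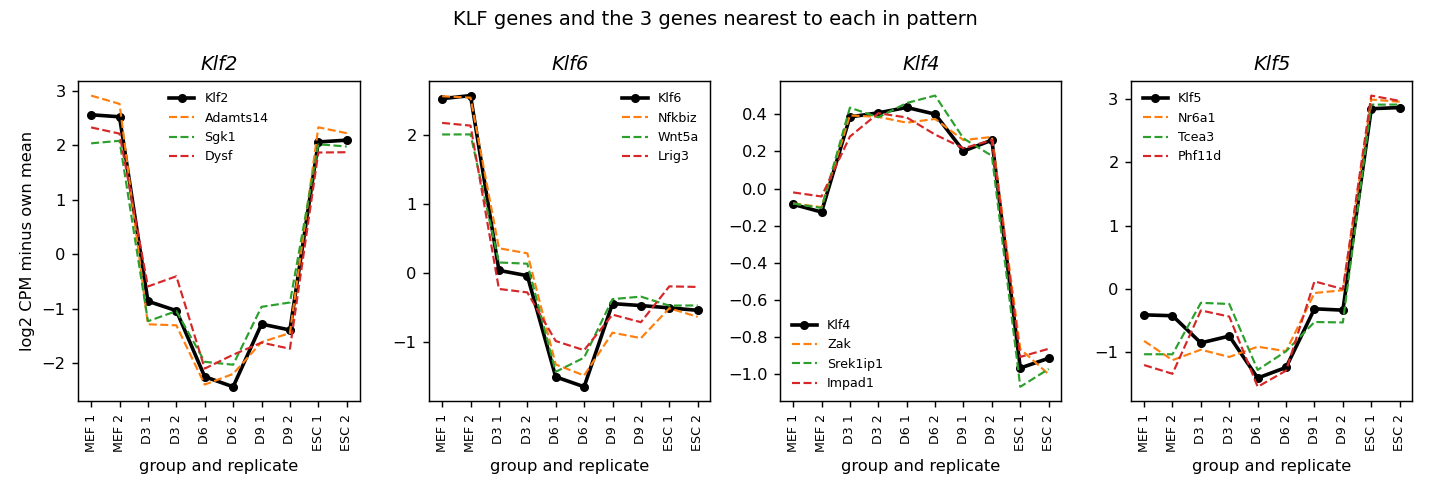
Log2 CPM of Klf2, Klf6, Klf4 and Klf5 (black) and of the 3 genes nearest to each (dashed), each minus its own mean over the 10 libraries, by group and replicate; the vertical scales differ between panels. Klf2 and its neighbours are high in MEF and ESC, Klf6 and its neighbours in MEF only, and Klf4 and its neighbours span a narrow range.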

How the data were processed

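RNA of 10 libraries, 2 in each of 5 groups taken from the sample titles, was sequenced from stranded mRNA libraries, per the labels' protocols, and all libraries carry 1 batch label. Transcripts were quantified with Salmon 0.8.2 on mm10, per the submitters' processing notes; the annotation release and the strand setting are not given in the sources used here. Per the file headers, the authors deposited an estimated count and a TPM value for each transcript, with length and effective length, and the effective lengths were the same in all tables. Estimated counts and TPM were summed here per gene ID, and the counts were rounded. Where a listed symbol had several IDs, the ID with the highest total was used. Without a stated strand setting, reads of overlapping antisense genes cannot be told apart; such genes reached at most 3.18 CPM (Gm20033, at Klf3).

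Genes were kept with filterByExpr (minimum count 10, minimum total 15). The main test was the quasi-likelihood F-test in edgeR 4.0.16 under R 4.3.3, with TMM scaling and 1 model for the 10 libraries and 5 group means. SE is the log2 fold change divided by the square root of F. P-values were adjusted over all 20165 genes. The lists and the members were chosen with earlier results of these data known, so no p-value is given for a list. The genes named were all members, up to 4 genes per list at 20 CPM or more taken by size of change in a comparison, any other KLF or SP gene, and the 3 genes nearest in pattern to Klf2, Klf4, Klf5 and members called at 3 or more steps. Replicates differed beyond sampling noise (chi-square per degree of freedom 2.91 to 5.43), and each was treated as 1 sample. That spread does not show whether they came from separate cultures. The common biological coefficient of variation in edgeR was 3.75%.

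Coordinates are from GENCODE M21 (GRCm38) and upstream sequences from RefSeq (GRCm38.p6). Alternatives were DESeq2 1.42.0, its size factors or library size in edgeR, a length offset, limma 3.58.1 on log2(TPM + 1) and log2(TPM + 0.1), other filters, no fold change minimum, only the 2 groups compared, a replicate block, and leaving out each library. Python 3.11.15, numpy 2.4.6, pandas 2.3.3 and matplotlib 3.10.9 were also used.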

Additional observations from a re-analysis of the deposited data

How the results depend on the processing

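The number of KLF members called was 3, 2, 3, 4, 5 and 2 for D3 vs MEF, D6 vs D3, D9 vs D6, ESC vs D9, ESC vs MEF and D9 vs MEF, and without a fold change minimum it was 8, 5, 9, 8, 9 and 8. The shares of all tested genes called were 29.1%, 19.5%, 7.87%, 32.9%, 46.1% and 43.9%, and without a fold change minimum 64.9%, 56.5%, 34.6%, 69.6%, 76.6% and 74.9%. For D9 vs D6 limma on log2(TPM + 1) called 0 members (1.89% of all tested genes) and on log2(TPM + 0.1) called 1 (4.91%). Leaving out each library gave 1 to 3 for D9 vs D6 (1 without D9 replicate 1, 2 without D6 replicate 1, D6 replicate 2, MEF replicate 1 or ESC replicate 1) and left the others at 3, 2, 4, 5 and 2. With a replicate block the counts were again 3, 2, 3, 4, 5 and 2. Deviations of same-numbered libraries correlated at -0.0205 to 0.0222 over all tested genes. No shared deviation was seen, but genes with few reads enter this value, so it cannot exclude pairing. Klf3 reversed: for D3 vs MEF it was -0.075 (length offset), -0.052 and -0.053 (limma, both pseudocounts), for ESC vs D9 0.061, 0.212 and 0.216, for ESC vs MEF 0.69, 0.756 and 0.771 under the same settings, and for D9 vs MEF -0.049 (only the 2 groups), -0.058 (DESeq2 size factors) and -0.058 (DESeq2). Klf4 passed the fold change minimum at D3 with a length offset (1.15) and limma (1.17 and 1.18). Over the members' single fold changes, 1132 of 1194 alternative values kept side and direction, 12 reversed, and 8 gained, 17 lost and 25 moved. The cause was not tested.

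Library size scaling moved the median of all genes to 0.29, 0.44 and 0.48 for D3, ESC and D9 vs MEF and the share of calls that were higher from 50.2%, 55.3% and 54.9% to 60.5%, 67.5% and 65.5%. Counts of all genes called that differed by over 1.5 times were 3022, 2014, 775, 2966, 5067 and 4759 with 10 CPM in 2 libraries, 13094, 11387, 6981, 14028, 15442 and 15098 without a fold change minimum, 2663, 1401, 382, 2768, 5055 and 4625 with limma on log2(TPM + 1), and 991 for D9 vs D6 with log2(TPM + 0.1). The filter of 10 CPM in 2 libraries left 11712 genes to test, beside 20165 in the main test. As shares of the genes tested, its calls were 25.8%, 17.2%, 6.62%, 25.3%, 43.3% and 40.6%. Those of the main test were 29.1%, 19.5%, 7.87%, 32.9%, 46.1% and 43.9%. Klf12 held 85 to 154 reads a library, and the lowest reads of Klf5 and Klf2 were 106 and 175.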
